A study of Mus musculus with 8 samples.

Results

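Kupffer cells, the resident macrophages of the liver, were followed through 10 marker genes: Csf1r, Clec4f, Cd5l, Marco, Vsig4, Cd68, C1qa, C1qb, C1qc and Emr1. They were taken as the rows of the expression tables that carry these symbols. This gave 10 genes of the 23235 symbols listed, each with 1 locus, and all 10 passed the filter on low values that 10865 of 23699 loci passed. The livers came from 8-week-old male C57/BL6 mice. They formed 4 groups of 2 libraries: liver-specific Med23 knockout (LMKO) mice fasted for 24 h and then re-fed for 24 h, control mice treated likewise, LMKO mice fasted for 24 h, and control mice fasted for 24 h. Med23 is a subunit of the Mediator complex, which links transcription factors to RNA polymerase II. The driver of the deletion, the part of the gene removed and the control genotype are not given in the sources used here. Polyadenylated RNA of whole liver was sequenced, and values are FPKM, read fragments divided by transcript length in kilobases and by library size, so levels of different genes can be compared per length.

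Kupffer cells line the liver sinusoids, take up particles and old blood cells from portal blood, and make the 3 chains of complement C1q. Their survival depends on the receptor Csf1r and its ligands. They are few beside the hepatocytes, so that their transcripts are a small part of liver RNA. In bulk tissue, fewer cells of a type and less RNA per cell cannot be told apart. The liver label was checked against hepatocyte genes: Ttr, the thyroxine carrier transthyretin, lay between 1515 and 8622 FPKM over the 8 libraries. Albumin (Alb) was listed at 0 in all 8, a value that can stand for a failed estimate.

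The targeted gene Med23 had 1.61 and 1.74 FPKM in re-fed LMKO livers, against 2.86 and 2.33 FPKM in re-fed control livers. In fasted LMKO livers it had 2.35 and 2.18 FPKM, against 2.86 and 2.93 FPKM in fasted control livers. The groups did not overlap in either state, which in re-fed livers also held for 19.4% of all loci in that direction. For fasted livers that share is not given here, and 35.1% of all loci had a negative log2 fold change. Med23 was not called in limma, with adjusted p of 0.315 (re-fed) and 0.438 (fasted). Summed FPKM was 580797 to 597650 in re-fed LMKO, 511926 to 552680 in re-fed control, 465853 to 468218 in fasted LMKO and 453652 to 460106 in fasted control libraries. The number of fragments is unknown, and a relative depth read from low values lay between 0.956 and 1.11. The correlation across loci of a library's deviation with log2 transcript length was -0.357 to -0.325 in re-fed LMKO, -0.327 to -0.0182 in re-fed control, 0.249 to 0.293 in fasted LMKO and 0.222 to 0.264 in fasted control libraries. This length trend moves with the feeding state, and so does a prefix in the deposited names whose meaning is not given, so neither can be told apart from feeding by groups alone. Results for re-feeding are therefore also given with the length trend removed where that changes the call of a marker, and for part of the other genes.

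The promoters below are shown because these 4 markers share a cell type and had unequal log2 fold changes in re-fed LMKO livers. Clec4f and Vsig4 were called lower. C1qb and C1qc were not called in the main fit, but were with the length trend removed or with the replicate block given further on. The difference between these genes was not tested. Each run is the 250 bases before the RefSeq gene start on GRCm38.p6, read 5′ to 3′ on the gene's strand, and RefSeq entries were matched for 7 of the 10 markers. Capitals mark GAGGAA, the purine-rich box read by the macrophage factor PU.1, and GGAAGT, a related ETS-family core, on either strand. Clec4f lies on the minus strand (chr6:83656117-83656366), Vsig4 on the minus strand (chrX:96293439-96293688), C1qb on the minus strand (chr4:136886201-136886450) and C1qc on the minus strand (chr4:136892915-136893164).
Clec4f: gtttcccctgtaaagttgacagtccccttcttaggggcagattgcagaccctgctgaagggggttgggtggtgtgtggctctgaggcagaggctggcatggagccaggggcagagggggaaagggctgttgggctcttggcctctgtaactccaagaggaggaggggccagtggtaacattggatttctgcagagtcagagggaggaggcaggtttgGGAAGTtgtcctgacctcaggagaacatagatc
Vsig4: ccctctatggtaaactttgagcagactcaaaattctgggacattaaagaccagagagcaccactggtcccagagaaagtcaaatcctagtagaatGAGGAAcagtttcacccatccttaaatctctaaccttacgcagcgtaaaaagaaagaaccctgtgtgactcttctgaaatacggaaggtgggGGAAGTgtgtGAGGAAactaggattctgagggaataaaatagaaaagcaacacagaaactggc
C1qb: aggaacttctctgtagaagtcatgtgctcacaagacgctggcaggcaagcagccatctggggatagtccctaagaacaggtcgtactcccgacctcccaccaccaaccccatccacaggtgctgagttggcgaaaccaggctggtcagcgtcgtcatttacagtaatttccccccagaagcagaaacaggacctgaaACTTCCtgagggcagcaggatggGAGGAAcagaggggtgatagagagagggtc
C1qc: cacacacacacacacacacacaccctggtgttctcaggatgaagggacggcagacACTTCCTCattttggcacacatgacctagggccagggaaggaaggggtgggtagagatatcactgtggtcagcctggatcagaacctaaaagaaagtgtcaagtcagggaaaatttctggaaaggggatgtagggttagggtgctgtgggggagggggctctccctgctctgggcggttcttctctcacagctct
Clec4f holds 1 GGAAGT, Vsig4 holds 2 copies of GAGGAA and 1 of GGAAGT, and C1qb holds 1 of each. In C1qc the motifs overlap on the other strand as 1 joined stretch. Of the 7 promoters matched, 6 held GAGGAA and 4 held GGAAGT, against 23.3% and 19.7% of all 32851 promoters of that length in the RefSeq table. TGCTGA, part of the Maf recognition element, was found in 3 of 7 (16.1% of all promoters), and TGAGTCA, the AP-1 site, in 1 of 7 (4.46%, in Cd68). TATAAA was found in 0 of 7 (12.4% of all). Both strands were searched each time. These matches describe letters in a window and show no binding.

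In fasted livers the order of the markers by level per length was much the same in both genotypes. Clec4f, a galactose-binding lectin found in Kupffer cells, stood first in both genotypes at 32.3 ± 4.95 FPKM in LMKO and 32.7 ± 8.45 FPKM in control livers (SD, n = 2 each, as for all means here). Cd5l followed Clec4f in LMKO livers at 30.5 ± 7.23 FPKM and stood below C1qb and C1qc in control livers at 19.2 ± 3.93 FPKM. C1qb reached 24.5 ± 4.39 FPKM in LMKO and 22.5 ± 3.37 FPKM in control livers, and its spread met that of C1qc and C1qa in both. Vsig4 and Csf1r came next, and Cd68, Emr1 and Marco were lowest, with Marco at 1.37 ± 1.25 FPKM in LMKO and 1.71 ± 0.9 FPKM in control livers. In re-fed livers the order changed at the top, and the part of the length trend in this was not tested. The longest reference transcript of Clec4f has 2471 nt, those of the C1q genes 1040 to 1203 nt. Clec4f averaged 13.6 ± 3.46 FPKM in LMKO and 17.9 ± 5.43 FPKM in control livers and led in neither. C1qb led in LMKO at 15.2 ± 4.63 FPKM and Cd5l in control livers at 26.1 ± 4.91 FPKM. Means of the first 5 markers in re-fed LMKO livers, 12.7 to 15.2 FPKM, did not differ beyond their spread.

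**Figure D1:**
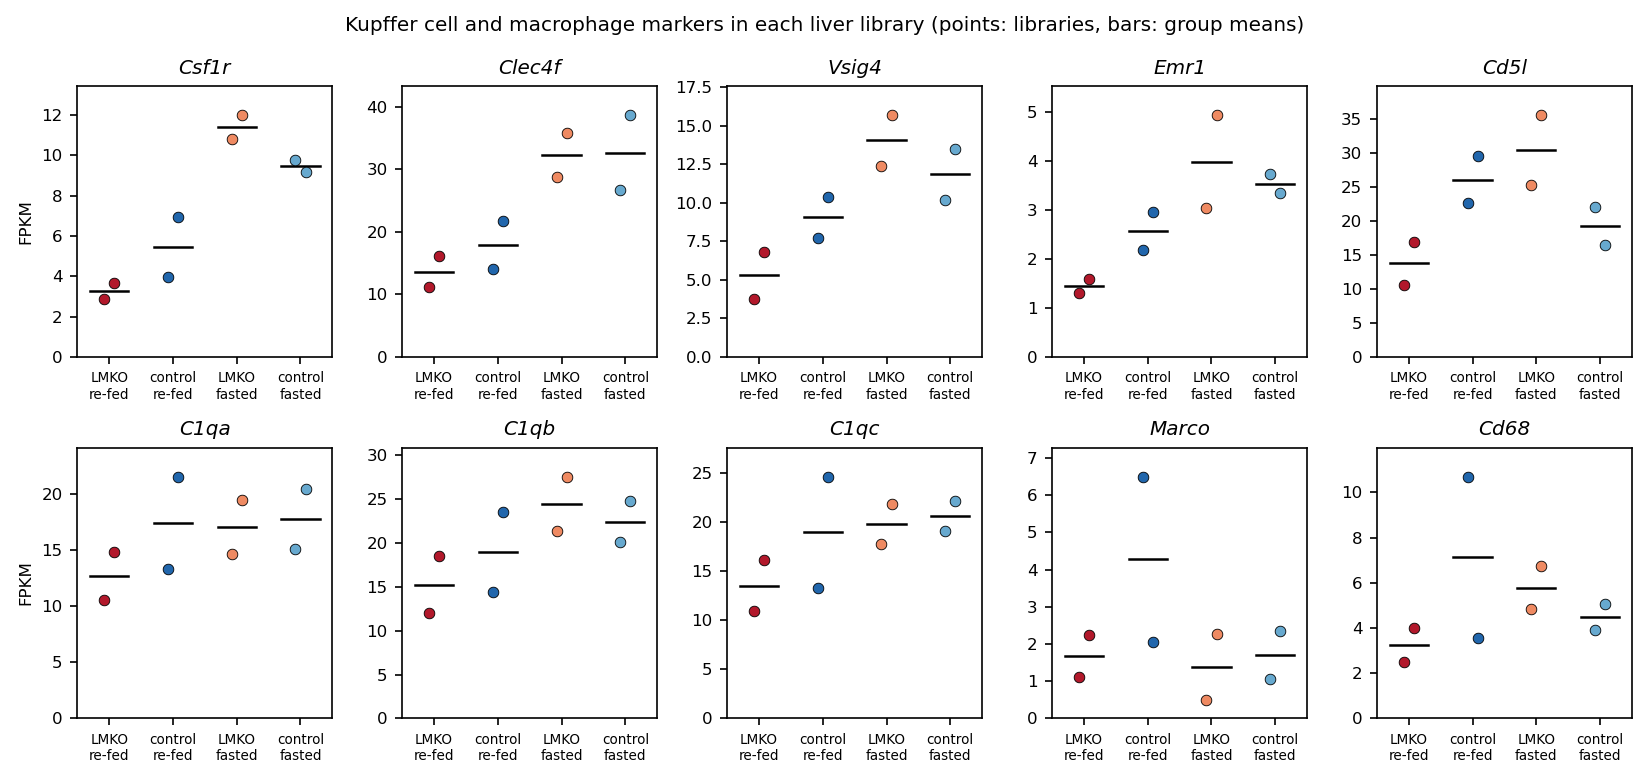
FPKM of each marker (y axis, linear, from 0) in each library (points) of the 4 groups (x axis), with the group mean as a bar. Csf1r, Clec4f, Vsig4 and Emr1 are lower in re-fed than in fasted libraries of LMKO livers with no overlap, and a single re-fed control library stands high for Marco (6.5 FPKM) and Cd68 (10.7 FPKM).

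Re-feeding of LMKO mice was the comparison with the most changes. Csf1r, Vsig4, Clec4f, Cd5l and Emr1 fell, by 1.01 to 1.54 on the log2 scale, while the 3 C1q genes, Cd68 and Marco did not pass the test. Thus 5 of 10 markers were called lower at an adjusted p under 0.05 in limma, where 16.3% of all tested loci were called lower and 39.5% were called in either direction. The median log2 fold change was -0.84 over the 10 markers, against 0.06 over all loci. In 8 of 10 both re-fed libraries lay below both fasted ones, which held for 33.8% of all loci.

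Csf1r (chr18:61265226-61290793 on mm9, as all loci here), the receptor for the macrophage growth factors Csf1 and Il34, had 2.85 and 3.68 FPKM in re-fed LMKO livers, against 10.8 and 12.0 FPKM in fasted LMKO livers. It fell by 1.54 on the log2(FPKM + 1) scale (SE 0.225, limma adjusted p = 0.0037), the largest fall among the 10. It was called in all 19 alternatives tried, with adjusted p between 0.00273 and 0.0257. Vsig4 (chrX:93442542-93488777), the complement receptor of the immunoglobulin family that clears C3-coated particles, had 3.78 and 6.82 FPKM in re-fed LMKO livers, against 12.4 and 15.7 FPKM in fasted ones. Its fold change was -1.29 (SE 0.274, limma adjusted p = 0.0118). The re-fed and fasted libraries of both genes were separate.

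Clec4f (chr6:83594536-83606110) had 11.2 and 16.1 FPKM in re-fed LMKO livers, against 28.8 and 35.8 FPKM in fasted LMKO livers, a log2 fold change of -1.2 (SE 0.283, limma adjusted p = 0.0168). Emr1 (chr17:57498109-57622952), which encodes a macrophage surface receptor of the adhesion family, had 1.3 and 1.58 FPKM in re-fed LMKO livers, against 3.04 and 4.94 FPKM in fasted ones, a change of -1.01 (SE 0.206, limma adjusted p = 0.0106). Cd5l (chr3:87161803-87174996), a protein secreted by macrophages that protects them from cell death, had 10.6 and 16.9 FPKM in re-fed LMKO livers, against 25.3 and 35.6 FPKM in fasted ones. Its fold change was -1.1 (SE 0.277, limma adjusted p = 0.0208). All 3 had separate groups. Leaving out 1 library ended some of these calls, with the direction kept. Without fasted LMKO library 2 only Csf1r and Emr1 passed, and Clec4f had -1.05 (limma adjusted p = 0.0867), Cd5l -0.87 (0.107) and Vsig4 -1.14 (0.066). Without re-fed LMKO library 1 only Csf1r passed, and Clec4f had -0.96 (limma adjusted p = 0.088), Cd5l -0.79 (0.101), Vsig4 -0.94 (0.0514) and Emr1 -0.92 (0.0569).

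The C1q genes encode the recognition molecule of the classical complement pathway and lie side by side in the order C1qb, C1qc, C1qa within 18699 bp (chr4:136436061-136454759). C1qb had 12.0 and 18.5 FPKM in re-fed LMKO livers, against 21.4 and 27.6 FPKM in fasted LMKO livers (log2 fold change -0.67, SE 0.29, limma adjusted p = 0.11). C1qc had 10.9 and 16.1 FPKM in re-fed livers, against 17.7 and 21.8 FPKM in fasted ones (-0.53, SE 0.301, adjusted p = 0.203). C1qa had 10.6 and 14.9 FPKM in re-fed livers, against 14.7 and 19.5 FPKM in fasted ones (-0.4, SE 0.284, adjusted p = 0.294). Libraries of C1qb and C1qc did not overlap, those of C1qa did. With the length trend removed all 3 passed in limma, at adjusted p of 0.0211 for C1qb, 0.0365 for C1qc and 0.0407 for C1qa, and 8 of 10 markers were called lower, where 14.7% of all loci were. Their longest reference transcripts have 1040 to 1203 nt, that of Cd68, not called in either fit, 1230 nt, and that of Vsig4, called in both, 1432 nt. Those of Cd5l, Clec4f, Emr1 and Csf1r have 2036 to 4701 nt. The part of length in these calls was not tested further.

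Cd68 and Marco had the widest errors. Cd68 (chr11:69477873-69479564), a lysosomal membrane glycoprotein of macrophages, had 2.49 and 4.01 FPKM in re-fed LMKO livers, against 4.82 and 6.73 FPKM in fasted ones (log2 fold change -0.68, SE 0.431, limma adjusted p = 0.245). Marco (chr1:122371115-122401661), a scavenger receptor for bacteria and particles, had 1.1 and 2.25 FPKM in re-fed LMKO livers, against 0.489 and 2.26 FPKM in fasted ones (0.25, SE 0.541, adjusted p = 0.742). Marco was the single marker with a positive value, which was -0.03 with the length trend removed, and its libraries overlapped.

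**Figure D2:**
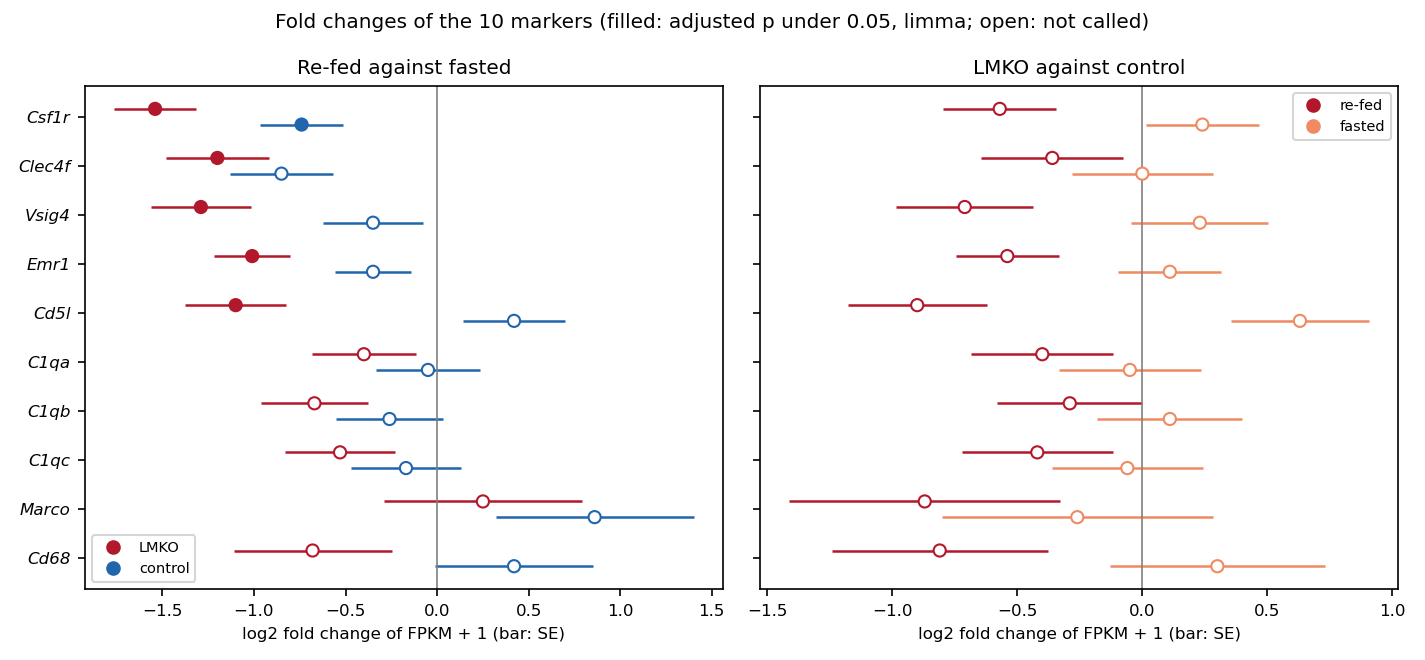
Log2 fold change of FPKM + 1 (x axis; bars, SE) of the 10 markers (y axis) for re-fed against fasted livers (left panel; LMKO red, control blue) and for LMKO against control livers (right panel; re-fed red, fasted orange), filled where limma's adjusted p was under 0.05. In the left panel 5 filled points belong to LMKO livers and 1 to control livers, at -0.74 for Csf1r; the right panel has none.

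In control mice re-feeding changed 1 of 10 markers at this threshold, where 10.5% of all loci were called lower and 33.2% in either direction. Csf1r had 3.97 and 6.94 FPKM in re-fed control livers, against 9.79 and 9.15 FPKM in fasted control livers, and fell by 0.74 (SE 0.225, limma adjusted p = 0.0456). This call was lost in 10 of 19 alternatives, with log2 fold changes of -0.78 to -0.40, the last without re-fed control library 1 (limma adjusted p = 0.131). Among them were the removal of the length trend (-0.75, adjusted p = 0.0706), a fit to the 4 control libraries alone (-0.74, 0.0891) and 7 of the 8 fits without a library, including those without a fasted or re-fed LMKO library, which share the estimate of the spread. Clec4f had 14.0 and 21.7 FPKM in re-fed control livers, against 26.7 and 38.7 FPKM in fasted ones (-0.85, SE 0.283, limma adjusted p = 0.059). It passed with median-ratio scaling (0.0432) and quantile normalization (0.0332), and with the length trend removed, at 0.0405. Emr1 had 2.18 and 2.95 FPKM in re-fed control livers, against 3.73 and 3.35 FPKM in fasted ones (-0.35, SE 0.206, adjusted p = 0.224). These 3 markers were lower in re-fed control libraries with no overlap, as were 25.0% of all loci.

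The other markers of control livers showed no common direction. Vsig4 had 7.71 and 10.4 FPKM in re-fed control livers, against 10.2 and 13.5 FPKM in fasted ones (-0.35, limma adjusted p = 0.353). Cd5l was the reverse of its LMKO values: 22.6 and 29.6 FPKM in re-fed control livers, against 22.0 and 16.4 FPKM in fasted ones, a change of 0.42 (SE 0.277, adjusted p = 0.275) with separate groups, as 43.9% of all loci had in that direction. C1qa had 13.3 and 21.6 FPKM in re-fed control livers, against 15.1 and 20.5 FPKM in fasted ones. C1qb had 14.4 and 23.6 FPKM, against 20.1 and 24.8 FPKM, and C1qc 13.3 and 24.6 FPKM, against 19.1 and 22.1 FPKM, in the same order of groups. All 3 C1q genes overlapped, with log2 fold changes of -0.26 to -0.05. Marco had 6.5 and 2.06 FPKM in re-fed control livers, against 1.07 and 2.35 FPKM in fasted ones, and Cd68 10.7 and 3.56 FPKM, against 3.91 and 5.05 FPKM. Both high values came from re-fed control library 1. Without it the log2 fold change of Cd68 was -0.26 in place of 0.42. Over the 10 markers 7 were lower on average in re-fed control livers, as were 39.9% of all loci, and the median was -0.22, against 0.13 over all loci. With the length trend removed it was -0.54, against 0.00 over all loci, with quantile normalization -0.40 and with median-ratio scaling -0.36.

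The responses of the genotypes to re-feeding were then set against each other in 1 model. The difference, LMKO response minus control response, was negative for all 10 markers, as for 58.1% of all loci, with a median of -0.64 against -0.06 over all loci. The same sign was found for most endothelial, stellate and class II genes, given further on. Medians were positive for 2 neutrophil (0.72) and 5 red blood cell loci (0.99). None of the 10 was called in limma (adjusted p between 0.481 and 0.807), where 0.0368% of all loci were. At an unadjusted p under 0.05 there were 3, Cd5l at -1.53 (SE 0.392, limma adjusted p = 0.481), Vsig4 at -0.94 (SE 0.387, adjusted p = 0.53) and Csf1r at -0.8 (SE 0.319, adjusted p = 0.519), a rule that 6.1% of all loci met with a negative value. The counts of 5 and 1 called markers therefore do not show that the responses differ.

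LMKO livers were next compared with control livers in each state. In re-fed mice all 10 markers were lower on average in LMKO livers, with log2 fold changes of -0.9 to -0.29 and a median of -0.55 against 0.01 over all loci, where 48.5% of loci were negative. Most endothelial, stellate and class II genes, given further on, had the same sign. Medians were positive for 2 neutrophil (0.96), 5 red blood cell (0.58) and 10 hepatocyte loci (0.07). None was called in limma, where 0.101% of all loci were. Cd5l, Vsig4, Csf1r and Emr1 had an unadjusted p under 0.05 and separate groups, which 4.57% and 19.4% of all loci had in that direction. Cd5l had 10.6 and 16.9 FPKM in re-fed LMKO livers, against 22.6 and 29.6 FPKM in re-fed control livers (-0.9, SE 0.277, limma adjusted p = 0.342). Vsig4 had 3.78 and 6.82 FPKM in re-fed LMKO livers, against 7.71 and 10.4 FPKM in re-fed control livers (-0.71, SE 0.274, adjusted p = 0.411). Csf1r at -0.57 and Emr1 at -0.54 had adjusted p of 0.417 and 0.408. The remaining 6 markers overlapped between the genotypes.

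In fasted mice the genotypes were closer. The median log2 fold change was 0.11, against 0.08 over all loci, and 4 of 10 markers were lower on average in LMKO livers, as were 35.1% of all loci. None was called in limma (0.166% of all loci were) and none had an unadjusted p under 0.05 (12.4% of all loci). Cd5l had 25.3 and 35.6 FPKM in fasted LMKO livers, against 22.0 and 16.4 FPKM in fasted control livers (0.63, SE 0.277, limma adjusted p = 0.422). Csf1r had 10.8 and 12.0 FPKM in fasted LMKO livers, against 9.79 and 9.15 FPKM in fasted control livers (0.24, SE 0.225, adjusted p = 0.699). These 2 were higher with no overlap, as were 33.0% of all loci. Over both states the median was -0.22, with 0 of 10 called in limma (0.313% of all loci were called) and 0 with an unadjusted p under 0.05 (15.1% of all loci). These comparisons share libraries with those on re-feeding and are no separate evidence.

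The markers moved together from library to library, also within groups. Library 2 was above library 1 for all 10 markers in re-fed LMKO livers, by a median of 0.52 on the log2 scale, where 61.5% of all loci were above. The same held for 8 of 10 in re-fed control livers (median 0.5; 43.3% of all loci), for all 10 in fasted LMKO livers (median 0.37; 35.6%) and for 7 of 10 in fasted control livers (median 0.3; 44.5%). Summed over the 10 markers, FPKM was 66.8 and 101 in re-fed LMKO, 109 and 147 in re-fed control, 139 and 182 in fasted LMKO and 132 and 156 in fasted control libraries. Between pairs of markers Pearson's r over the 8 libraries had a median of 0.71 over 45 pairs (range -0.34 to 0.96). Without Marco and Cd68, which were set aside after their values were seen, it was 0.84 over 28 pairs (0.55 to 0.96). The libraries share group and depth, so these values are descriptions.

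Among the C1q chains, C1qa over C1qb lay between 0.689 and 0.918 and C1qc over C1qb between 0.791 and 1.04 in all 8 libraries. C1qa over C1qb was 0.884 and 0.804 in re-fed LMKO and 0.689 and 0.706 in fasted LMKO livers. In control livers it was 0.918 and 0.913 after re-feeding and 0.752 and 0.824 in the fasted state. Within each genotype its re-fed libraries thus lay above its fasted ones, while C1qc over C1qb did so in LMKO livers only. The summed C1q value was 3.0 and 3.08 times that of Clec4f in re-fed LMKO livers and 2.92 and 3.22 times in re-fed control livers. It was 1.87 and 1.92 times in fasted LMKO and 2.03 and 1.74 times in fasted control livers. Re-fed and fasted libraries thus did not overlap in this ratio in either genotype, while the genotypes lay close. Csf1r over C1qb was 0.238 and 0.199 in re-fed LMKO, 0.275 and 0.294 in re-fed control, 0.504 and 0.434 in fasted LMKO and 0.487 and 0.368 in fasted control livers. These ratios were chosen after the levels were seen and were not tested. They move with the length trend over the groups, whose part was not tested. Re-fed control library 1, whose length correlation was -0.0182, had a ratio of 2.92, and re-fed control library 2, at -0.327, had 3.22.

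**Figure D3:**
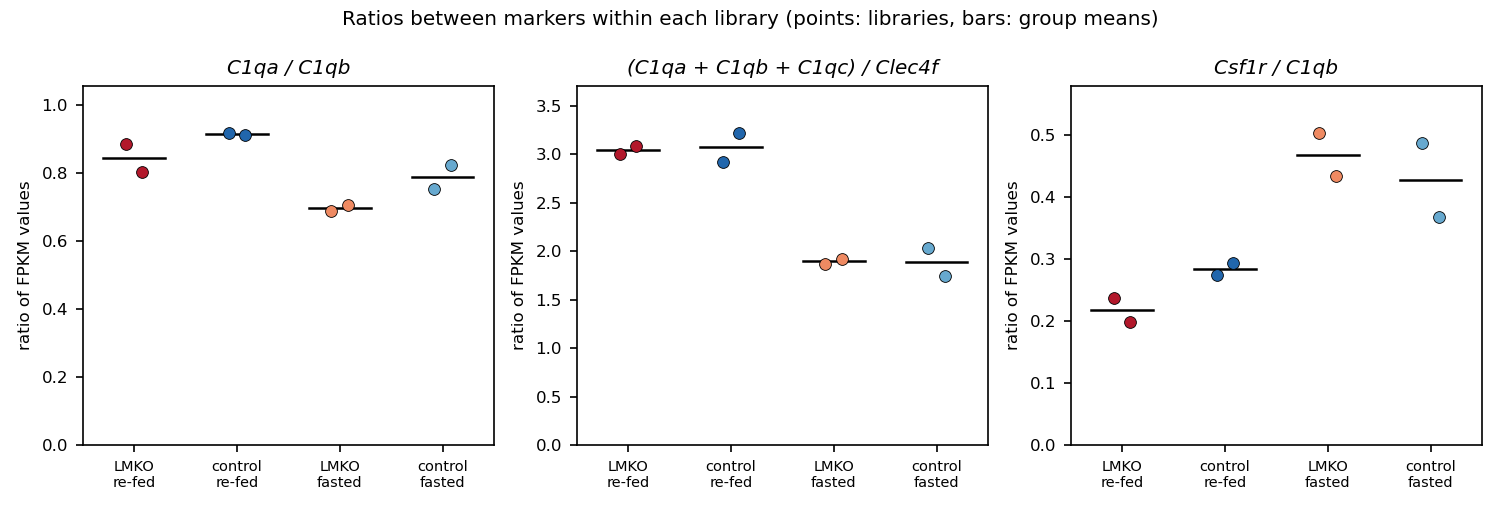
Ratios of FPKM values within each library (points; y axis, linear, from 0) for C1qa over C1qb, the 3 C1q genes summed over Clec4f, and Csf1r over C1qb in the 4 groups (x axis; bars, group means). The middle panel separates re-fed libraries (2.92 to 3.22) from fasted ones (1.74 to 2.03) in both genotypes.

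Other genes of resident macrophages were also lower after re-feeding of LMKO mice. Of 26 tested, 12 were called lower and 0 higher in re-fed against fasted LMKO livers (median -0.69), where 16.3% of all loci were called lower. In control livers 2 were called lower and 1 higher (median -0.14), where 10.5% of all loci were called lower. With median-ratio scaling or the length trend removed 4 were called lower, where 14.8% and 12.4% of all loci were. The difference of the responses was called for 0 of 26. Cd163, the haemoglobin scavenger receptor, had 0.84 and 1.04 FPKM in re-fed LMKO livers, against 5.22 and 5.32 FPKM in fasted ones (-1.7, limma adjusted p = 0.00322). In control livers it had 1.92 and 2.11 FPKM after re-feeding, against 5.71 and 10.4 FPKM in fasted livers (-1.54, adjusted p = 0.00585). Clec1b, a lectin receptor of Kupffer cells and platelets, fell by 1.26 in LMKO (limma adjusted p = 0.0134), Cybb, the oxidase subunit of the phagocyte burst, by 1.09 (0.00503), and Mertk, a receptor for dying cells, by 1.08 (0.00817). Sirpa, which binds CD47, fell by 0.78 (limma adjusted p = 0.00979) and the scavenger receptor Msr1 by 0.71 (0.0131). In control livers these 5 had values of -0.72 to -0.13 and none passed. Mertk passed there with median-ratio scaling, quantile normalization or the length trend removed (limma adjusted p of 0.0286 to 0.0351), and Cybb with median-ratio scaling (0.0395). Further genes are named after their values were seen. Timd4, a phosphatidylserine receptor of Kupffer cells, had 0.729 and 1.34 FPKM in re-fed LMKO livers, against 2.15 and 3.09 FPKM in fasted ones (-0.83, limma adjusted p = 0.0205). Mpeg1, a pore-forming protein of macrophages, had 3.58 and 4.55 FPKM, against 8.07 and 11.5 FPKM in the same order (-1.08, adjusted p = 0.0154). The other gene called lower in control livers was Slc11a1, a metal transporter of phagosomes (-0.63, limma adjusted p = 0.0412). The gene called higher there was Aif1, with 3.04 and 5.49 FPKM in re-fed control livers, against 1.5 and 0.385 FPKM in fasted ones (1.46, limma adjusted p = 0.0172). With the length trend removed 0 of the 26 genes were called higher in control livers.

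Regulators of the lineage were called in both directions. Of 9 tested macrophage transcription factors, 3 were called lower and 2 higher on re-feeding of LMKO mice, and 2 lower and 2 higher in control mice. With the length trend removed 1 was called lower and 1 higher in control mice. Over all loci 39.5% were called in either direction in LMKO and 33.2% in control mice, and 16.3% and 10.5% were called lower. The counts of these 9 genes were not tested against those shares. Sfpi1, which encodes PU.1, had 0.676 and 1.27 FPKM in re-fed LMKO livers, against 2.39 and 2.23 FPKM in fasted LMKO livers (-0.76, limma adjusted p = 0.0233). Zeb2 fell by 0.71 (limma adjusted p = 0.00773) and Maf by 0.7 (0.0115) in LMKO, and both calls were lost with the length trend removed (0.173 and 0.0718). In control livers Maf had -0.48 (limma adjusted p = 0.0443), a call also lost with the length trend removed (0.112). Nr1h3, which encodes LXR-alpha and is also active in hepatocytes, rose by 0.92 in LMKO (limma adjusted p = 0.00235) and by 0.49 in control livers (0.0186), the second call being lost with quantile normalization (0.294) or the length trend removed (0.159). Id3 rose by 1.96 in LMKO (adjusted p = 0.0163) and by 1.91 in control livers (0.0214). Cebpb, which hepatocytes also express, fell by 1.28 in control livers (limma adjusted p = 0.00691) and had -0.23 in LMKO livers (0.401).

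Of the ligands of Csf1r, Csf1 had 1.96 and 3.72 FPKM in re-fed LMKO livers, against 1.56 and 1.75 FPKM in fasted LMKO livers (0.49, limma adjusted p = 0.14). In control livers it had 2.54 and 3.32 FPKM after re-feeding, against 1.5 and 1.05 FPKM in fasted livers, and rose by 0.79 (limma adjusted p = 0.0432), a call lost with median-ratio scaling (0.70, 0.0569) or the length trend removed (0.74, 0.0606). Il34 stayed below the filter, with at most 0.971 FPKM. The ligand and its receptor thus had opposite signs in both genotypes.

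Partners of C1q in the classical pathway, made mostly by hepatocytes, were called in both directions. In LMKO livers 1 of 8 tested was called higher and 1 lower on re-feeding, and in control livers 3 were called higher. These counts do not stand out from all loci, of which 39.5% were called in LMKO and 33.2% in control livers. C4bp, an inhibitor of the pathway, had 300 and 278 FPKM in re-fed LMKO livers, against 148 and 170 FPKM in fasted ones (0.86, limma adjusted p = 0.00541; 0.0792 after quantile normalization). Serping1, the C1 inhibitor, had 308 and 324 FPKM, against 425 and 503 FPKM in the same order (-0.55, limma adjusted p = 0.0181). In control livers the proteases C1ra (0.56, limma adjusted p = 0.0376) and C1s (0.54, 0.0346) and C4bp (0.86, 0.00724) were called higher; with median-ratio scaling, quantile normalization or the length trend removed the protease calls were lost and Serping1 was called lower (limma adjusted p of 0.00871 to 0.0404; 0.0917 without).

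Markers of other cells of the sinusoid were counted alongside. Of 12 sinusoidal endothelial genes, 9 were called lower in re-fed LMKO and 6 in re-fed control livers, with median log2 fold changes of -1.13 and -0.62. Among these, Stab1 lost its control call with the length trend removed (limma adjusted p = 0.0518). Over all loci 16.3% were called lower in LMKO and 10.5% in control livers. Their summed FPKM was 70.3 to 101 in re-fed LMKO, 90.3 to 102 in re-fed control, 153 to 169 in fasted LMKO and 120 to 122 in fasted control livers. Of 11 stellate cell genes, 4 were called lower in LMKO and 3 lower and 1 higher in control livers. Beside these counts stand the 16.3% and 10.5% of all loci called lower, and 39.5% in LMKO and 33.2% in control livers called in either direction. The stellate medians were -0.45 in LMKO and 0.30 in control livers, where 7 of 11 stellate genes were higher on average. Their sums, of which Dcn, the proteoglycan decorin, was the greater part, were 59.3 to 76.7 in re-fed LMKO, 80.9 to 98.5 in re-fed control, 114 to 127 in fasted LMKO and 105 to 112 in fasted control livers. The 10 hepatocyte genes summed to 32784 to 37760 in re-fed LMKO and 27428 to 32036 in re-fed control livers. In fasted livers they summed to 34576 to 35507 in LMKO and 32232 to 33578 in control. These sums hide changes in both directions. On re-feeding 2 genes were called higher and 4 lower in LMKO (median -0.24), and 2 higher and 3 lower in control livers (median -0.59). Re-fed LMKO livers were below re-fed control livers on average in 11 of 12 endothelial (median -0.33), 11 of 11 stellate (-0.50; 10 of 11 with the length trend removed) and 23 of 26 other resident macrophage genes (-0.37). The difference of the re-feeding responses was negative in 12 of 12 endothelial (median -0.60), 11 of 11 stellate (-0.45; 10 of 11 with median-ratio scaling, quantile normalization or the length trend removed), 23 of 26 other macrophage (-0.47; 22 of 26 with median-ratio scaling or quantile normalization) and 6 of 6 class II genes (-0.96). None of these genes was called by limma in these 2 comparisons, where 0.101% and 0.0368% of all loci were. For re-fed LMKO against control, 4 endothelial, 2 stellate, 5 other macrophage and 0 class II genes had an unadjusted p under 0.05. All of them were lower, as were 4.57% of all loci at that threshold. For the difference the counts were 4, 4, 7 and 0, all negative, as were 6.1% of all loci. The sign of the macrophage markers in both comparisons is thus shared by most endothelial, stellate and class II genes, whose part in it was not tested. It was not shared by the neutrophil and red blood cell lists, whose medians were positive in both comparisons.

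Markers of blood-borne immune cells were low. None of 13 T and natural killer cell genes passed the filter, and 2 of 9 monocyte, 2 of 9 dendritic, 2 of 8 listed neutrophil and 1 of 8 B cell genes did. The monocyte list summed to 11.1 and 11.2 FPKM in re-fed LMKO, 10.2 and 15.2 in re-fed control, 6.71 and 8.02 in fasted LMKO and 6.03 and 6.43 in fasted control livers. Plac8 was the monocyte gene called, higher on re-feeding by 0.73 in LMKO (limma adjusted p = 0.0224; 0.276 with the length trend removed) and by 1.08 in control livers (0.00841). Ccr2, which defines inflammatory monocytes, reached at most 0.561 FPKM and Ly6c2 at most 0.543 FPKM. The neutrophil list summed to 4.96 and 10.6 FPKM in re-fed LMKO, 1.69 and 4.06 in re-fed control, 4.23 and 4.51 in fasted LMKO and 2.16 and 4.87 in fasted control livers. Re-fed control library 2 stood apart in antigen presentation: 9 class II genes summed to 156 FPKM there, against 24.2 FPKM in the other re-fed control library and 34.1 to 73.4 FPKM in the other 6 libraries. None of 6 class II genes tested was called in either re-feeding comparison.

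**Figure D4:**
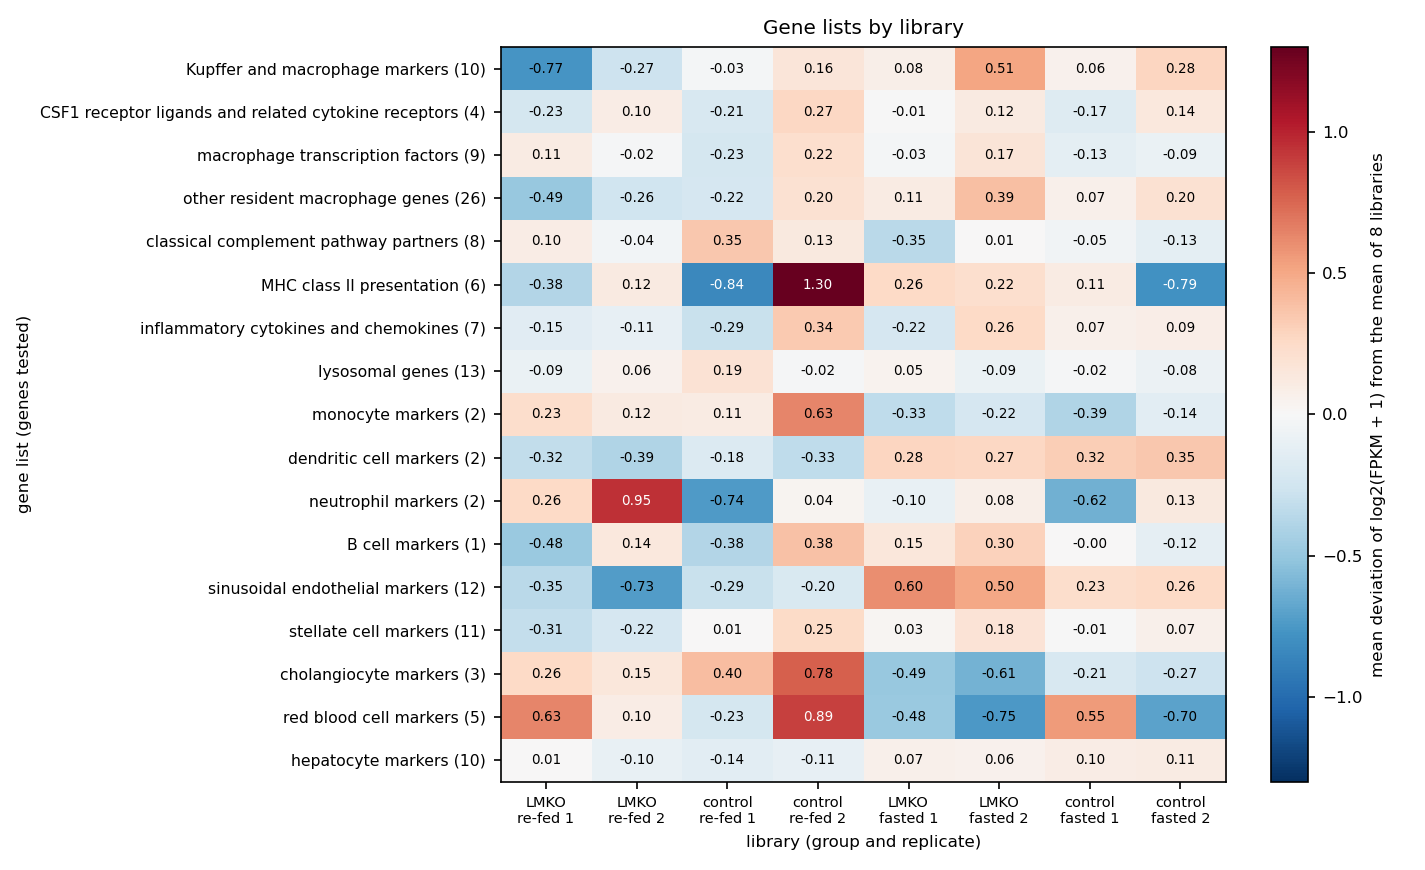
Mean deviation of log2(FPKM + 1) from the mean of the 8 libraries (colour and printed value) for each gene list (rows, with the number of genes tested) in each library (columns). The macrophage markers are lowest in the re-fed LMKO libraries (-0.77 and -0.27), and MHC class II genes are highest in re-fed control library 2 (1.30).

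By likeness over the 8 libraries, 10 genes outside the markers came closest to their mean z-score among 9055 loci with a mean of at least 2 FPKM. Axl, a receptor for dying cells, stood first (Pearson's r = 0.961), before properdin (Cfp, 0.948), which stabilises the alternative complement convertase, and Msr1 (0.928). They were followed by Rhobtb3 (0.925), Baz2a (0.922) and Iigp1 (0.914). Fcna, a ficolin of the lectin complement pathway (0.913), Col14a1 (0.909), Tyrobp, the signalling adaptor of many myeloid receptors (0.906), and the immunoglobulin receptor Fcgr3 (0.892) completed the 10. Of all loci compared, 90 reached 0.8, and 8 of these were among the 19 other resident macrophage genes compared. The values have n = 8 libraries in 4 groups and carry the shared groups and depth.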

How the data were processed

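Liver RNA of 8 libraries in 4 groups of 2 was analysed. The FPKM values were computed and deposited by the authors as 1 list of 23699 loci per library. Per the submitters' processing notes, the tools were TopHat 1.4.1, Cufflinks 2.0.2 and Cuffdiff 2.0.2, on mm9. How the authors scaled libraries to each other is not stated. No depth is given, so no count model and no counting interval was used. Groups came from the sample labels, and the design text gives n = 2 per group. Nothing states that each library is a separate animal, so p-values measure the spread between these libraries.

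The deposited FPKM values were log2-transformed after adding 1, so changes of low genes come out smaller than they are. Loci with at least 1 FPKM in at least 2 libraries (10865) were fitted with limma 3.58.1 in R 4.3.3, with 4 group means, a variance trend, 4 residual and 2.74 prior degrees of freedom, and Benjamini-Hochberg adjustment over all loci of each comparison. A call is an adjusted p under 0.05. The fit was tested on simulated data. Groups are called separate, or not overlapping, where both libraries of the first lie on 1 side of both of the second.

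Same-numbered libraries did not deviate together over all loci (correlations of -0.0835 to -0.00835), and the main fit did not pair them. This does not exclude a pairing, and most markers were higher in library 2 in all 4 groups. Deposited starts count from 0: of 22410 symbols, the end less the start matched the gene's annotated length exactly for 9478, and 1 more than this for 581, so starts are printed 1 higher. Transcript lengths are the longest in GENCODE vM21 and were used with no coordinates. Promoters are RefSeq on another build, GRCm38.p6.

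The markers and the other gene lists were chosen with earlier results of these data known. From each other list up to 6 called genes with the smallest p were picked, or 3 by unadjusted p where none was called. Not all genes picked are described here, so those named are no complete list. Alternatives covered the pseudocount, the filter, scaling, variance model, length trend, samples fitted, replicate block and each library left out.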

Additional observations from a re-analysis of the deposited data

How the results depend on the processing

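For re-feeding of LMKO mice, 8 markers were called with the length trend removed, with a median log2 fold change of -1.16, and 1 to 5 when a library was left out (1 without re-fed LMKO replicate 1, 2 without fasted LMKO replicate 2). For re-feeding of control mice, where 1 was called, the count was 0 with no filter on low values or with the 4 libraries of the comparison alone, 2 with median-ratio scaling or quantile normalization, and 0 to 1 when a library was left out. With median-ratio scaling and quantile normalization 14.8% and 15.6% of all loci were called lower there. The median of the markers on re-feeding of control mice was -0.54 with the length trend removed and -0.53 to -0.04 when a library was left out. The median difference of responses was -0.9 to -0.3 when a library was left out. The cause of these shifts was not tested, other than the loss of samples where a library was left out. Median-ratio scaling moved the median of all loci on re-feeding of control mice to 0.01, against 0.13 without it, and that of the markers to -0.36.

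With the replicate block, 2 markers were called on re-feeding of control mice (Csf1r and Clec4f) and 7 on re-feeding of LMKO mice, 5 being called without it. Whether the numbers pair libraries is unknown, so this is given as a value only.

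Signs of markers that were not called turned when a library was left out; the ranges follow. For LMKO against control in fasted livers they were -0.26 to 0.26 for Clec4f, -0.82 to 0.31 for Marco, -0.26 to 0.16 for C1qa, -0.06 to 0.29 for C1qb, -0.21 to 0.08 for C1qc and -0.17 to 0.39 for Emr1. In re-fed livers C1qb had -0.63 to 0.04. Over both states Csf1r had -0.33 to 0.01, Cd5l -0.29 to 0.02, Cd68 -0.59 to 0.09 and C1qb -0.26 to 0.08. For re-feeding of control mice Cd68 had -0.26 to 1.10, C1qa -0.38 to 0.28, C1qb -0.60 to 0.08 and C1qc -0.59 to 0.25. For re-feeding of LMKO mice Marco had -0.32 to 0.81, and -0.03 with the length trend removed. For the difference of responses Marco had -1.26 to 0.03 and C1qc -0.78 to 0.06. No call of any marker turned its sign under the alternatives run, and 0 markers were called for LMKO against control or for the difference of responses under each of them.

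With 2 libraries a group, small changes cannot be shown. Marco and Emr1 lie within a few FPKM of the filter, depth is unknown, and feeding state, the length trend and the prefix of the deposited names cannot be told apart by groups alone.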

Other observations

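Products of activated macrophages were low in all 4 groups. Of 14 inflammatory cytokine and chemokine genes, 7 passed the filter on low values, and Tnf reached at most 0.186 FPKM and Il6 at most 0.0324 FPKM. On re-feeding 0 of 7 were called in LMKO livers by limma, where 39.5% of all loci were called, and 1 in control livers, where 33.2% were. That gene was Il1rn, the interleukin-1 receptor antagonist. It had 0.45 and 0.728 FPKM in re-fed control livers, against 2.67 and 16.8 FPKM in fasted control livers (-2.35, limma adjusted p = 0.0455). In LMKO livers it had 0.239 and 0.115 FPKM after re-feeding, against 1.24 and 4.33 FPKM in fasted livers (-1.55, limma adjusted p = 0.128). Fasted libraries stood above re-fed ones in both genotypes and differed several-fold among themselves.

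Lysosomal genes, which hepatocytes share with macrophages, had no direction that held across scalings. Of 13 tested, 1 was called higher and 1 lower on re-feeding of LMKO mice (median 0.18), where 39.5% of all loci were called, and 4 higher and 2 lower in control mice (median 0.29), where 33.2% were. With quantile normalization the counts were 1 higher and 4 lower in LMKO (median -0.21) and 2 higher and 3 lower in control mice (median -0.09). Grn, which encodes progranulin, had 49.5 and 70.5 FPKM in re-fed LMKO livers, against 117 and 120 FPKM in fasted ones (-0.99, limma adjusted p = 0.0113), and fell by 1.32 in control livers (limma adjusted p = 0.00638). Of 2 dendritic cell genes tested, Clec9a and Zbtb46, both were called lower on re-feeding in both genotypes, by 0.58 to 0.64, from at most 2.05 FPKM. Over all loci 16.3% were called lower in LMKO and 10.5% in control livers. Of 3 cholangiocyte genes tested 1, Spp1, was called higher on re-feeding, at 1.45 in LMKO (limma adjusted p = 0.00715) and 1.63 in control livers (0.00668). In either direction 39.5% and 33.2% of all loci were called. None of 5 loci of red blood cell genes was called in either genotype by limma, and none had an unadjusted p under 0.05.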
